A study of Homo sapiens with 4 samples.

Results

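The kinetochore is the protein assembly that joins a chromosome to the mitotic spindle, and its genes were read in A375 melanoma cells that had been made resistant to vemurafenib and in their parental line. The set held 44 genes of the 62649 gene identifiers in the count files. They were chosen by name, for their known place in chromosome segregation, and not by a threshold on their counts, although earlier results of these data were known when they were listed. By role they comprised 14 genes of the inner centromere, 15 of the outer kinetochore, 10 of the spindle checkpoint and 5 of the passenger group, here the chromosomal passenger complex with SGO2. All 44 were found and all passed the filter on low counts, so no gene of the set was left out of the tests. In the higher group 43 of them reached at least 5 CPM (counts scaled to a common library total), the exception being MAD1L1.

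A375 is an established human melanoma line that carries an activated BRAF kinase, and vemurafenib is a BRAF inhibitor. The resistant libraries (n = 2) came from A375 cells carried through weekly doublings of vemurafenib from 0.1 to 6.4 µM. The control libraries (n = 2) came from A375 cells that had not been taken through that selection. Both lines grew in the same serum-supplemented medium. The labels name DMSO as the vehicle of the study's drug treatments, and they do not say whether vemurafenib, or DMSO, was in the medium at harvest. All libraries descend from 1 cell line, and the labels describe a single course of selection and do not say whether clones were picked. Replicates are described as biological, with no word on whether each was its own culture, and p-values therefore reflect only how far these 4 libraries spread, which may be technical.

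Total counts were 68022689 and 85197524 in resistant replicates 1 and 2, and 72290468 and 87178097 in control replicates 1 and 2. Every count of control replicate 1 was even, with 0 odd counts, and the counts were used as deposited. The melanoma markers SOX10 (969 and 864 CPM in resistant libraries, 704 and 1149 CPM in control libraries) and ERBB3 were abundant, whereas the pigment genes PMEL and MLANA were low. Summed markers of other skin and blood cells were low. Fibroblast markers summed to 11.7 and 10.4 CPM in resistant libraries and 14.9 and 11.1 CPM in control libraries, keratinocyte markers to 0.844 and 0.653 CPM against 1.68 and 2.71 CPM, and immune markers to 1.32 and 0.895 CPM against 0.727 and 1.4 CPM. Single markers within these sums went both ways. Of the 5 fibroblast markers 4 had a negative log2 fold change and 1, COL1A1 (0.28 ± 0.30), a positive one. Of the 3 keratinocyte markers tested 1 was negative and 2, KRT5 (0.41 ± 0.97) and TP63 (0.21 ± 1.22), were positive. The groups of COL1A1, KRT5 and TP63 overlapped. KRT14, a basal keratinocyte keratin, had 0.309 and 0.314 CPM in resistant libraries, against 1.62 and 2.08 CPM in control libraries, and fell (log2 fold change -2.56 ± 0.39, adjusted p = 0.0355 in edgeR's quasi-likelihood test, 0.000452 to 0.186 with each library left out in turn). LUM, a fibroblast matrix gene, had 0.366 and 0.145 CPM in resistant libraries, against 2.18 and 1.43 CPM in control libraries (-2.83 ± 0.53, edgeR adjusted p = 0.0569, DESeq2 adjusted p = 0.000135). CD3E, KRT1 and DSG3 had too few counts to be tested, and the part of other cells in the results below was not tested.

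Kinetochores are built on nucleosomes that contain the histone variant CENPA. A constitutive inner layer of CENP proteins sits on these nucleosomes and recruits an outer layer, the KNL1, MIS12 and NDC80 complexes, which binds microtubules. Until each kinetochore is attached, the spindle checkpoint holds CDC20, the activator of the anaphase-promoting complex, in an inhibitory complex, and the kinase AURKB with its passenger partners releases faulty attachments. Most of these genes are known to be transcribed mainly in the later part of the cell cycle, through promoter elements such as the CHR (cell cycle genes homology region) and the CCAAT box. In RNA from a bulk culture, fewer cells in a cell cycle phase and less RNA per cell cannot be told apart.

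Most kinetochore and checkpoint transcripts had lower values in resistant than in control libraries, with the microtubule-binding NDC80 complex, CENPA, BUB1 and CDC20 among the lowest and the MIS12 complex near no difference. The median log2 fold change of the 44 genes, resistant over control, was -0.55 (a 1.46-fold lower level), with an interquartile range of -0.93 to -0.25, against a median of 0.01 over the 24961 genes tested. The fold change was negative for 42 of the 44 genes, against 49.5% of all genes tested, and positive for PMF1 and MIS12 alone, against 50.5%. A level at least 2-fold lower was fitted for 8 of the 44, against 6.1% of all genes tested. For 30 of the 44 genes both resistant libraries were lower than both control libraries, against 22.2% of all genes tested and 24.7% of those that reached 5 CPM. MIS12 was the 1 gene whose resistant libraries were both higher, a pattern held by 22.4% of genes tested, and the groups overlapped for the other 13. The summed level of the 44 genes was 1161 and 1319 CPM in resistant libraries, against 2413 and 1602 CPM in control libraries.

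No single gene of the set passed edgeR's quasi-likelihood test after Benjamini-Hochberg adjustment over all genes tested, at a threshold of 0.05. That test called 0.513% of all genes lower and 0.577% higher, and the lowest adjusted p in the set was 0.0569, for CENPE. At an unadjusted p under 0.05 the same test had 23 of the 44 genes lower and 0 higher, against 7.32% of all genes lower (9.72% of those that reached 5 CPM) and 6.14% higher. DESeq2, run as an alternative, called 9 of the 44 lower and 0 higher, against 3.24% and 2.88% of the genes it gave an adjusted p. Those 9 were CENPA, NDC80, SPC24, KNL1, ZWINT, CENPE, CENPF, BUB1 and AURKB. Below, adjusted p is edgeR's unless DESeq2 is named, and ± after a fold change is its standard error.

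**Figure D1:**
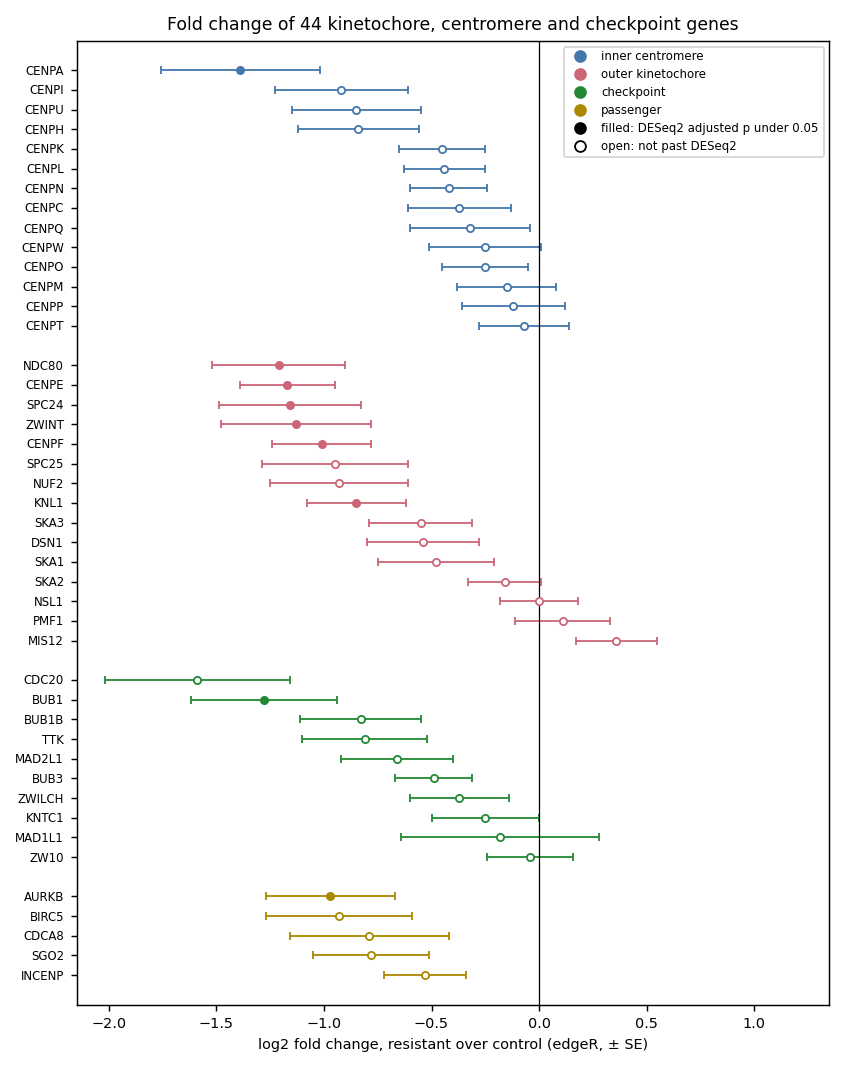
Log2 fold change, resistant over control, of the 44 genes by role, from edgeR with 2 libraries per group; bars are standard errors and filled points mark an adjusted p under 0.05 in DESeq2. Values run from -1.59 (CDC20) to 0.36 (MIS12), and 42 of 44 points lie at or left of 0.

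The size of the difference moved with control replicate 1, the library whose counts were all even. Whether that trait of the library has a part in the difference was not tested. That library exceeded control replicate 2 in 41 of the 44 genes, and the median log2 ratio between these replicates was 0.54, against 0.04 over all genes with at least 5 CPM. Between the resistant replicates the direction was mixed, with replicate 1 above replicate 2 in 16 of the 44 genes. The median log2 ratio of replicate 1 to replicate 2 was -0.18, against -0.07 over genes with at least 5 CPM. Without control replicate 1 the median log2 fold change of the 44 genes was -0.32, and without control replicate 2 it was -0.80. Without resistant replicate 1 the median was -0.52, and without resistant replicate 2 it was -0.74. Each of these fits left a group with a single library, so no counts of genes past a threshold are given for them.

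**Figure D2:**
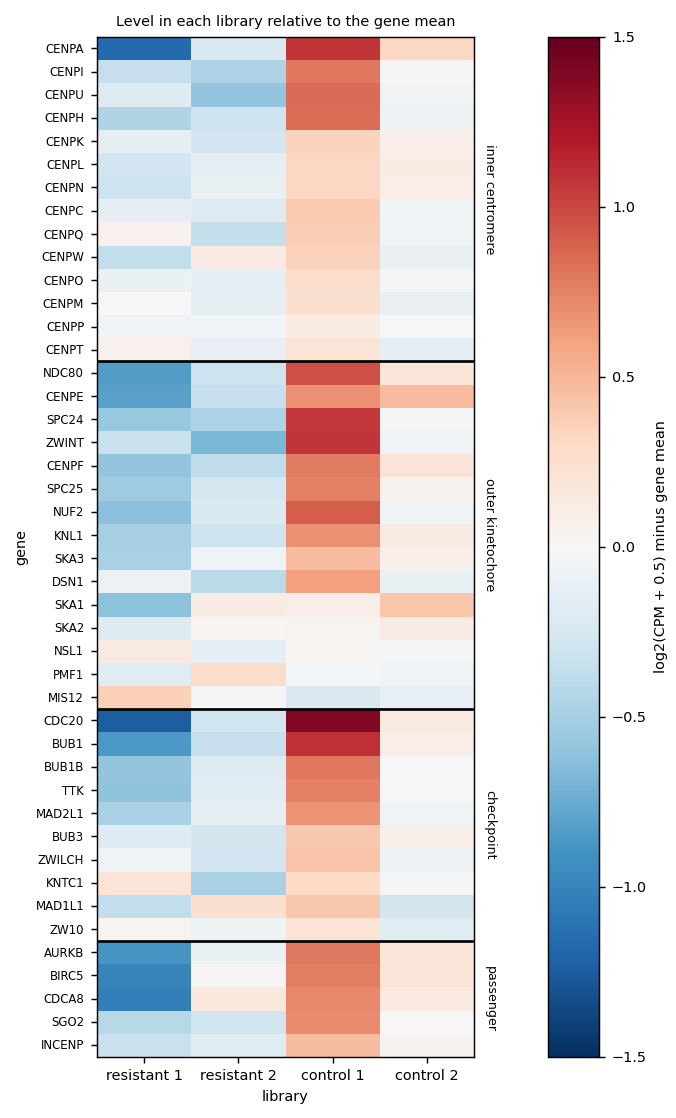
Level of each gene in each library, as log2(CPM + 0.5) minus the gene's mean over the 4 libraries, grouped by role and ordered by fold change. Control 1 is the reddest column for most genes, resistant 1 the bluest for CENPA, CDC20 and the passenger genes, and control 2 lies near the gene mean for most.

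Promoter sequence was not used to choose the genes, but genes of this kind are known to carry CHR and CCAAT elements. An excess over all genes is therefore not independent of the choice. In the 250 bases before and 50 after the gene start, a CHR word, TTTGAA or TTCGAA on either strand, was found in 19 of the 36 genes with an entry in the RefSeq promoter table (52.8%), against 19.5% of the 27305 genes in that table. The 19 genes with the word had a median log2 fold change of -0.79 (range -1.59 to -0.04), and the 17 without it -0.37 (range -1.17 to 0.36). The ranges overlapped widely, and CENPE at -1.17 was among the genes without the word. A CCAAT word on either strand was in 24 of the 36 (66.7%, against 39.7% of all genes), and here the medians were close, -0.59 with it and -0.55 without. The E2F words TTTCCCGC, TTTGGCGC, TTTGCCGC and TTTCGCGC, on either strand, were in 3 of the 36 (8.33%, against 3.99%). In the last 100 bases before the start alone, a CHR word was in 7 of the 36 genes (19.4%, against 6.14%). The median log2 fold change was -0.83 with it (range -1.59 to -0.37) and -0.48 without (range -1.28 to 0.36), so these ranges overlapped too. Promoters of CENPH, CENPL, CENPM, KNL1, BUB3, TTK, KNTC1 and BIRC5 were not analysed here. A word match is a description of these letters and was not tested as a binding site.

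To show where the word stands, the 100 bases before the RefSeq start (GRCh38.p14, 5′ to 3′ on the gene's strand) are given for the 4 genes with the lowest fold changes that held it there, CDC20 (chr1:43358881-43358980, plus strand), CENPA (chr2:26785956-26786055, plus strand), ZWINT (chr10:56361260-56361359, minus strand) and BUB1B (chr15:40160969-40161068, plus strand). Capitals mark the CHR word, which begins 65 bases before the start in CDC20, 18 in CENPA, 31 in ZWINT and 23 in BUB1B. In ZWINT it reads TTCAAA, the reverse complement of TTTGAA. RefSeq starts can differ from those of the annotation used for counting, and the CENPA start lies inside the gene as counted.
CDC20: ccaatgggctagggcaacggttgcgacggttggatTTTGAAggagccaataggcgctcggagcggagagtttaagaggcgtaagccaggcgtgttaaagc
CENPA: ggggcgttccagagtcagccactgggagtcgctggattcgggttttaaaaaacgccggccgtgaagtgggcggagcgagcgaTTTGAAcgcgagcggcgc
ZWINT: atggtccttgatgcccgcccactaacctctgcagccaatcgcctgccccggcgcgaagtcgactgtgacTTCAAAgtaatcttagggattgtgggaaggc
BUB1B: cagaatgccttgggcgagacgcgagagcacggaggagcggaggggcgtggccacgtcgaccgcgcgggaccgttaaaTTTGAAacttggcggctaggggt

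For contrast, the same stretch is given for the 2 genes nearest to a log2 fold change of 0 that held no CHR word in it, NSL1 (chr1:212791778-212791877, minus strand) and ZW10 (chr11:113773693-113773792, minus strand). ZW10 held the word elsewhere in the longer window. The printed genes were picked both by fold change and by the word, so their contrast shows no link between them. In this stretch BUB1 (-1.28) and NDC80 (-1.21) held no CHR word, whereas CENPC (-0.37) and INCENP (-0.53) held one.
NSL1: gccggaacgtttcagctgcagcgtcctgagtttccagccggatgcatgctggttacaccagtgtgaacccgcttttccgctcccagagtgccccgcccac
ZW10: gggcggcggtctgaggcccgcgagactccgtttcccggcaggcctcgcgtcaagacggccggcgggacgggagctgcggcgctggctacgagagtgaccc

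The inner centromere genes had the smallest median difference of the 4 roles, and CENPA had the lowest fold change among them, though not without resistant replicate 1. All 14 log2 fold changes were negative (median -0.40), and in 10 the resistant libraries were both lower than the controls. At an unadjusted p under 0.05, 5 were lower (CENPA, CENPH, CENPI, CENPL and CENPU), and DESeq2 called 1 lower, CENPA. Over all genes these 3 shares were 22.2% (24.7% at 5 CPM), 7.32% (9.72% at 5 CPM) and 3.24%. The median was -0.21 without control replicate 1 and -0.53 without control replicate 2.

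CENPA (chr2:26764289-26801067), the histone H3 variant that marks the centromere, had 7.47 and 14.9 CPM in resistant libraries, against 37.1 and 21.6 CPM in control libraries. The groups did not overlap, with resistant replicate 1 lowest and control replicate 1 highest. The log2 fold change was -1.39 ± 0.37 (adjusted p = 0.144, DESeq2 adjusted p = 0.00608), and it lay between -1.97 and -0.94 when each library was left out in turn. CENPC, the scaffold that ties CENPA nucleosomes to the outer kinetochore, had 8.5 and 8.22 CPM in resistant libraries and 12.6 and 9.05 CPM in control libraries. Control replicate 1 alone stood clear of the other libraries, and the log2 fold change was -0.37 ± 0.24 with a 95% interval of -0.94 to 0.19 (adjusted p = 0.583). The ratio of CENPA to CENPC counts within a library, chosen after the values were seen and independent of how libraries are scaled, was 0.879 and 1.81 in resistant libraries, against 2.94 and 2.38 in control libraries.

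Among the subunits of the constitutive network, those of the CENP-HIKM module spread widely. CENPI had 5.18 and 4.71 CPM in resistant libraries, against 12.0 and 6.78 CPM in control libraries (log2 fold change -0.92 ± 0.31, adjusted p = 0.242). CENPH, of the same module, had 44.4 and 48.8 CPM in resistant libraries, against 109 and 57.7 CPM in control libraries (-0.84 ± 0.28, adjusted p = 0.242). For both genes control replicate 1 was far above the other 3 libraries, and the groups did not overlap. CENPK and CENPM had log2 fold changes of -0.45 ± 0.20 and -0.15 ± 0.23. CENPU, which brings the kinase PLK1 to kinetochores, had 34.1 and 25.7 CPM in resistant libraries, against 70.7 and 37.5 CPM in control libraries (-0.85 ± 0.30, adjusted p = 0.266). Its groups did not overlap, although resistant replicate 1 was close to control replicate 2. Its module partners CENPO, CENPP and CENPQ had log2 fold changes of -0.25 ± 0.20, -0.12 ± 0.24 and -0.32 ± 0.28. CENPL and its partner CENPN, a reader of CENPA nucleosomes, had -0.44 ± 0.19 and -0.42 ± 0.18, with both resistant libraries lower in each.

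CENPT and CENPW, the histone-fold pair that offers a second route for recruiting NDC80, showed no difference past the spread. CENPT had 20.8 and 18.1 CPM in resistant libraries and 22.9 and 17.9 CPM in control libraries. These values overlapped, and the log2 fold change was -0.07 ± 0.21 with a 95% interval of -0.55 to 0.41 (adjusted p = 0.939). Its sign turned without resistant replicate 2 or control replicate 1. CENPW had -0.25 ± 0.26, also with overlapping groups. Counting was not strand-aware, and parts of some genes are shared with neighbours, which limits their values: 43.2% of the exonic bases of CENPP, 31.6% of CENPO, 23.1% of CENPN, 20.2% of CENPT and 14.9% of CENPU overlap exons of another gene. Over all roles, 9 of the 44 genes shared over 10% of their exonic bases, and the other 35 had a median log2 fold change of -0.78, with 21 lower at an unadjusted p under 0.05.

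The outer kinetochore genes had a median difference close to that of the passenger group, and it was split by complex. Which of these roles had the lower median turned with the library left out. The NDC80 and KNL1 complexes and the motor and matrix proteins CENPE and CENPF were lower in both resistant libraries, while the MIS12 complex was not. Of the 15 fold changes 13 were negative, and the median on the log2 scale was -0.85. In 10 both resistant libraries were lower, 8 were lower at an unadjusted p under 0.05 and DESeq2 called 6 lower. Over all genes these shares were 22.2% (24.7% at 5 CPM), 7.32% (9.72% at 5 CPM) and 3.24%. The median was -0.45 without control replicate 1 and -1.10 without control replicate 2.

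The NDC80 complex is the main microtubule coupler of the kinetochore, a rod made of NDC80 with NUF2 and of SPC24 with SPC25. NDC80 (chr18:2571557-2616635) had 9.89 and 14.5 CPM in resistant libraries, against 35.8 and 20.6 CPM in control libraries (-1.21 ± 0.31, adjusted p = 0.129, DESeq2 adjusted p = 0.00675). SPC24 had 23.9 and 25.5 CPM in resistant libraries, against 75.3 and 35.2 CPM in control libraries (-1.16 ± 0.33, adjusted p = 0.157, DESeq2 adjusted p = 0.0144). In both genes the groups did not overlap, and control replicate 1 stood far above control replicate 2. NUF2 and SPC25 had log2 fold changes of -0.93 ± 0.32 and -0.95 ± 0.34, so the 4 subunits lay between -1.21 and -0.93. NDC80 lies in the first 20 Mb of chromosome 18, where the 46 other genes with at least 5 CPM had a median log2 fold change of -0.28 and 40 were negative. The part of that stretch in the value of NDC80 was not tested.

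KNL1, the scaffold on which BUB1 and BUB1B dock, had 20.6 and 23.6 CPM in resistant libraries, against 47.6 and 32.0 CPM in control libraries (-0.85 ± 0.23, adjusted p = 0.144, DESeq2 adjusted p = 0.0277). Its groups did not overlap, and the resistant replicates were close to each other. ZWINT, its partner, had 23.4 and 18.3 CPM in resistant libraries, against 63.2 and 28.6 CPM in control libraries (-1.13 ± 0.35, adjusted p = 0.196, DESeq2 adjusted p = 0.0279). CENPE (chr4:103105349-103198445), the kinesin that moves chromosomes to the spindle equator, had 16.9 and 23.6 CPM in resistant libraries, against 49.0 and 42.1 CPM in control libraries. For this gene the control replicates were close to each other, unlike most of the set, and the groups were well apart. Its log2 fold change was -1.17 ± 0.22 (adjusted p = 0.0569, DESeq2 adjusted p = 0.000257), and the adjusted p lay between 0.00405 and 0.195 with each library left out in turn. CENPF, a large kinetochore and nuclear matrix protein, had 72.4 and 83.9 CPM in resistant libraries, against 189 and 126 CPM in control libraries (-1.01 ± 0.23, adjusted p = 0.0909, DESeq2 adjusted p = 0.00361).

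The MIS12 complex, which bridges the inner layer to NDC80 and KNL1, was the exception among the outer genes. MIS12 (chr17:5486285-5490814) had 52.0 and 39.8 CPM in resistant libraries, against 34.7 and 37.0 CPM in control libraries. The groups did not overlap, but resistant replicate 2 was close to the controls, and the log2 fold change of 0.36 ± 0.19 had a 95% interval of -0.09 to 0.80 (adjusted p = 0.488). NSL1 had 48.3 and 40.0 CPM in resistant libraries and 45.0 and 43.5 CPM in control libraries, with a 95% interval of the log2 fold change of -0.41 to 0.40. PMF1 had 0.11 ± 0.22 (95% interval -0.41 to 0.64), with 23.3% of its exonic bases shared, mainly with the readthrough gene PMF1-BGLAP. DSN1 had 28.0 and 22.4 CPM in resistant libraries and 46.0 and 27.6 CPM in control libraries, which overlap (-0.54 ± 0.26, adjusted p = 0.435). The ratio of summed NDC80 complex to summed MIS12 complex CPM, chosen after the values were seen, was 0.378 and 0.551 in resistant libraries, against 1.21 and 0.701 in control libraries. Each resistant library was therefore below each control in this ratio, which does not depend on how libraries are scaled. The SKA complex, which helps NDC80 hold depolymerising microtubules, lay between, with log2 fold changes of -0.48 ± 0.27 for SKA1, -0.16 ± 0.17 for SKA2 and -0.55 ± 0.24 for SKA3.

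**Figure D3:**
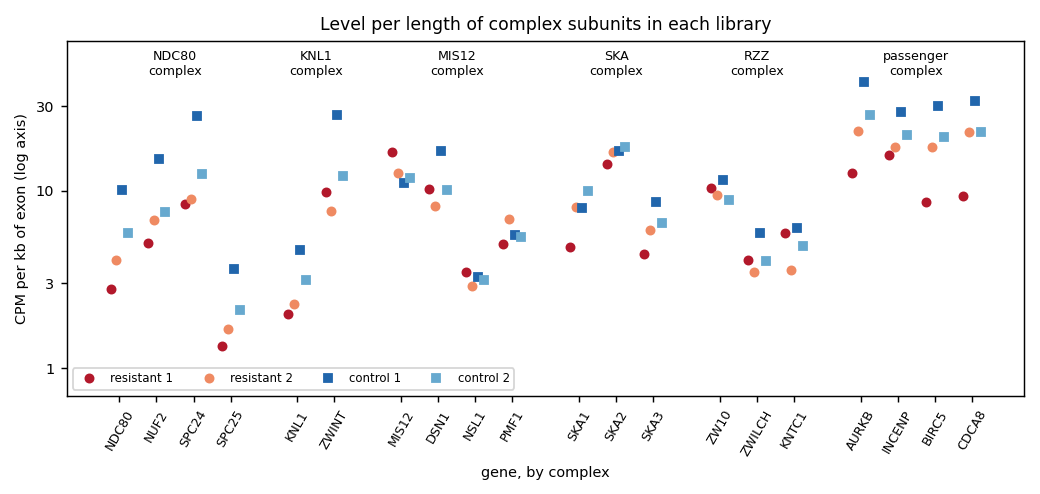
Level per length (CPM per kb of exon, log axis) of the subunits of 6 complexes in each library, with resistant libraries as circles and control libraries as squares. All NDC80 and KNL1 complex subunits had both circles below both squares, whereas those of MIS12 have the circles on top. The symbols of DSN1, NSL1, PMF1, SKA1, ZW10, ZWILCH, KNTC1 and CDCA8 overlap between groups.

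Among the checkpoint genes the largest differences were in CDC20 and BUB1. The 3 genes of the ROD-ZW10-ZWILCH complex had overlapping groups, with a median log2 fold change of -0.25. Each of the 10 log2 fold changes was below 0 (median -0.57). In 6 both resistant libraries were lower, the same 6 were lower at an unadjusted p under 0.05, and DESeq2 called 1 lower, BUB1. The shares over all genes were 22.2% (24.7% at 5 CPM), 7.32% (9.72% at 5 CPM) and 3.24%. The median was -0.28 without control replicate 1 and -0.81 without control replicate 2.

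CDC20 (chr1:43358981-43363203), the target that the checkpoint inhibits, had 39.9 and 77.0 CPM in resistant libraries, against 248 and 105 CPM in control libraries. The groups did not overlap, yet the replicates of each group differed from each other by more than resistant replicate 2 did from control replicate 2. The log2 fold change of -1.59 ± 0.43, the lowest of the 44, corresponds to a 3.02-fold lower level, with an adjusted p of 0.148 in edgeR and 0.267 in DESeq2. It was -0.84 without control replicate 1 and -2.14 without resistant replicate 2. The mitotic checkpoint complex joins CDC20 with MAD2L1, BUB1B and BUB3, and for each of these both resistant libraries were lower. MAD2L1, which binds CDC20 directly, had 34.2 and 43.7 CPM in resistant libraries, against 76.9 and 46.2 CPM in control libraries (-0.66 ± 0.26, adjusted p = 0.325). BUB1B, the BUBR1 kinase-like inhibitor, had 25.1 and 33.3 CPM in resistant libraries, against 66.0 and 38.0 CPM in control libraries (-0.83 ± 0.28, adjusted p = 0.242). In MAD2L1 and BUB1B resistant replicate 2 lay close below control replicate 2, and control replicate 1 was far above. BUB3, the WD-repeat partner of BUB1 and BUB1B, had 126 and 119 CPM in resistant libraries, against 192 and 152 CPM in control libraries. Its difference was small but the resistant replicates were nearly equal, and the log2 fold change was -0.49 ± 0.18 with a 95% interval of -0.91 to -0.07 (adjusted p = 0.289).

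BUB1 (chr2:110637528-110678063), the kinase that marks centromeric histone H2A and recruits checkpoint proteins, had 15.3 and 22.1 CPM in resistant libraries, against 60.8 and 30.2 CPM in control libraries (-1.28 ± 0.34, adjusted p = 0.137, DESeq2 adjusted p = 0.00682). TTK, the MPS1 kinase that starts the checkpoint signal, had 11.1 and 15.3 CPM in resistant libraries, against 29.2 and 17.0 CPM in control libraries (-0.81 ± 0.29, adjusted p = 0.281). The groups of both kinases did not overlap, and control replicate 1 was the highest library. Within a library, the ratio of CDC20 to BUB3 counts was 0.317 and 0.644 in resistant libraries, against 1.3 and 0.688 in control libraries, and that of BUB1 to BUB3 was 0.122 and 0.185, against 0.317 and 0.199. Both ratios were chosen after the values were seen, and in both resistant replicate 2 was just below control replicate 2. ZW10, of the complex that brings dynein and MAD proteins to kinetochores, had 30.1 and 27.6 CPM in resistant libraries and 33.7 and 25.7 CPM in control libraries. Its groups overlapped and the 95% interval of its log2 fold change was -0.50 to 0.42, and its sign turned without resistant replicate 2 or control replicate 1. ZWILCH and KNTC1, of the same complex, had -0.37 ± 0.23 and -0.25 ± 0.25, also with overlapping groups. MAD1L1, which anchors MAD2L1 at kinetochores, had 0.872 and 1.6 CPM in resistant libraries and 1.84 and 0.97 CPM in control libraries. Its level was the lowest of the set, and 43.2% of its exonic bases are shared with an unnamed gene on the same strand. Reads in the shared part counted for neither gene.

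In the passenger group the resistant replicates lay further apart than in the other roles. Resistant replicate 1 was lower than resistant replicate 2 in 5 of the 5 genes, with a median log2 ratio of -0.78, against medians of -0.38 for the checkpoint, -0.22 for the outer kinetochore and 0.04 for the inner centromere genes. The 5 log2 fold changes were all below 0 (median -0.79), and in 4 both resistant libraries were lower. The same 4 were lower at an unadjusted p under 0.05, and DESeq2 called 1, AURKB. Shares over all genes were 22.2% (24.7% at 5 CPM), 7.32% (9.72% at 5 CPM) and 3.24%. The median was -0.49 without resistant replicate 1, -1.41 without resistant replicate 2, -0.47 without control replicate 1 and -1.10 without control replicate 2.

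AURKB (chr17:8204733-8210600), the kinase of the complex, had 28.3 and 48.9 CPM in resistant libraries, against 91.4 and 59.8 CPM in control libraries (-0.97 ± 0.30, adjusted p = 0.199, DESeq2 adjusted p = 0.0446). INCENP, the scaffold that activates AURKB, had 70.4 and 78.6 CPM in resistant libraries, against 123 and 92.0 CPM in control libraries (-0.53 ± 0.19, adjusted p = 0.282). In both the groups did not overlap, and INCENP varied less between the resistant replicates than AURKB. BIRC5, survivin, which targets the complex to centromeric chromatin, had 33.0 and 67.5 CPM in resistant libraries, against 114 and 76.7 CPM in control libraries (-0.93 ± 0.34, adjusted p = 0.283). CDCA8, borealin, had 22.5 and 51.8 CPM in resistant libraries, against 77.1 and 51.5 CPM in control libraries (-0.79 ± 0.37, adjusted p = 0.423). Resistant replicate 2 was thus level with control replicate 2 in CDCA8 and near it in BIRC5, and resistant replicate 1 was the low library in both. Within a library, the ratio of CDCA8 to INCENP counts was 0.32 and 0.659 in resistant libraries and 0.626 and 0.56 in control libraries, and that of BIRC5 to INCENP was 0.469 and 0.858 against 0.925 and 0.834. Both ratios, chosen after the values were seen, overlapped between the groups. The ratio of AURKB to INCENP did not, at 0.402 and 0.622 in resistant libraries, against 0.741 and 0.65 in control libraries. SGO2, which protects centromeric cohesin, had 9.61 and 10.4 CPM in resistant libraries, against 21.5 and 13.0 CPM in control libraries (-0.78 ± 0.27, adjusted p = 0.254). Its 2 resistant replicates were close, as were those of INCENP. SGO2 lies between 200 and 250 Mb of chromosome 2, with 174 other genes of at least 5 CPM. Their median log2 fold change was 0.13, and 51 of them were negative. The part of that stretch in the value of SGO2 was not tested.

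**Figure D4:**
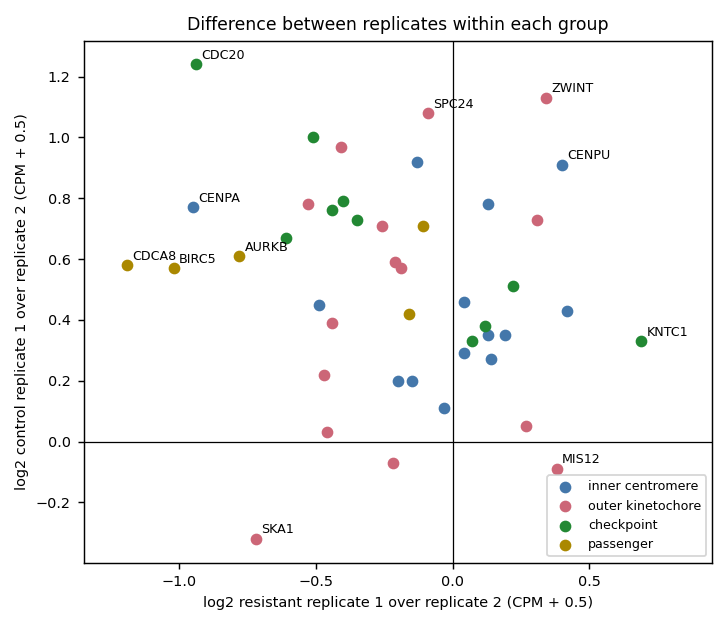
Each of the 44 genes by its log2 ratio of replicate 1 to replicate 2 in resistant libraries (x axis) and in control libraries (y axis), on log2(CPM + 0.5), coloured by role. Most points lie above the horizontal line, since control replicate 1 exceeded control replicate 2 in 41 of 44 genes, and the passenger genes all lie left of the vertical line.

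Per length of exon, CDC20 was the most abundant gene of the set in both groups, at 29.1 CPM per kb in resistant and 87.8 CPM per kb in control libraries. CENPH came next in both, at 21.0 and 37.7 CPM per kb, while AURKB had 17.2 CPM per kb in resistant and 33.7 CPM per kb in control libraries. MIS12 held rank 8 of the 44 in resistant libraries and rank 17 in control libraries, at 14.5 and 11.4 CPM per kb. CENPA held rank 23 in resistant libraries and rank 13 in control libraries, at 5.74 and 15.1 CPM per kb. Neighbours in this order often differed by less than the replicates of 1 gene did, so ranks near each other carry no order.

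Genes of neighbouring processes were read from lists of the same kind. Among 19 other kinetochore genes the median log2 fold change was -0.53, and 1 passed the adjusted threshold in edgeR: SGO1, the cohesin protector at centromeres, fell in resistant cells. SGO1 had 4.68 and 5.52 CPM in resistant libraries, against 15.2 and 11.8 CPM in control libraries (-1.40 ± 0.25, adjusted p = 0.0484). The adjusted p was 0.174 without resistant replicate 1 and 0.199 without resistant replicate 2. In the same list SPAG5, a spindle and kinetochore protein, had -1.08 ± 0.32, and BOD1, a phosphatase regulator at kinetochores, had 0.30 ± 0.23, with overlapping groups. Of the 19, 8 were lower at an unadjusted p under 0.05 (background 7.32%, or 9.72% at 5 CPM) and DESeq2 called 3 lower (background 3.24%). Over all genes tested, edgeR's adjusted threshold called 0.513% lower.

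The 16 mitotic entry genes were lower by more, with a median of -1.10 and all 16 negative. Of these 0 passed in edgeR, 13 were lower at an unadjusted p under 0.05 (background 7.32%, or 9.72% at 5 CPM) and DESeq2 called 9 lower (background 3.24%). CCNB1, the mitotic cyclin, had 35.2 and 68.4 CPM in resistant libraries, against 226 and 89.8 CPM in control libraries (-1.61 ± 0.45, adjusted p = 0.157), PLK1 had -1.43 ± 0.34, and PKMYT1, an inhibitory kinase of CDK1, had -0.17 ± 0.18. Summed CPM of the 44 genes over that of the mitotic entry list, a ratio chosen after the values were seen, was 1.47 and 1.18 in resistant libraries, against 1.07 and 1.15 in control libraries.

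The 18 genes listed with the anaphase-promoting complex, the ubiquitin ligase that the checkpoint restrains, had a median of -0.05, and 0 passed in edgeR. Of these 3 were lower at an unadjusted p under 0.05, against 7.32% of all genes tested and 9.72% of those that reached 5 CPM. The 3 were UBE2C, UBE2S and FBXO5. DESeq2 called 1, the ubiquitin-conjugating enzyme UBE2C, against 3.24%. UBE2C had 46.9 and 68.7 CPM in resistant libraries, against 155 and 105 CPM in control libraries (-1.17 ± 0.26, adjusted p = 0.0874). UBE2S, which extends the chains, had -0.56 ± 0.22, and the subunit CDC26 had 0.46 ± 0.21. The 14 genes of cohesin and separase had a median of -0.21, with 3 lower at an unadjusted p under 0.05 (background 7.32%, or 9.72% at 5 CPM), 1 by DESeq2 (background 3.24%) and 0 by edgeR. There PTTG1, securin, had -0.91 ± 0.33, the separase gene ESPL1 had -0.89 ± 0.21 and the cohesin release factor WAPL had 0.21 ± 0.16.

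The 25 DNA replication genes had a median of -0.27, with 21 negative. Of these 3 were lower at an unadjusted p under 0.05, a share near the 7.32% of all genes tested and the 9.72% of those at 5 CPM, with 1 by DESeq2 (background 3.24%) and 0 by edgeR. RRM2, a subunit of ribonucleotide reductase, had -0.97 ± 0.25, TYMS, thymidylate synthase, had -0.77 ± 0.29 and GINS3, of the replicative helicase, had 0.20 ± 0.20. The libraries were ordered differently there: the median deviation from the gene mean on the log2(CPM + 0.5) scale was 0.09 and -0.39 in resistant replicates 1 and 2, against 0.38 and -0.13 in control replicates 1 and 2. For the outer kinetochore genes it was -0.50 and -0.27 in resistant libraries, against 0.69 and 0.05 in control libraries. Resistant replicate 1 was thus the lowest library for the outer kinetochore and the second highest for DNA replication. The ratio of summed CPM of the kinetochore set to that of the DNA replication list was also chosen after the values were seen. It was 0.647 and 1.02 in resistant libraries, against 1.03 and 0.993 in control libraries. The groups overlapped in this ratio, with resistant replicate 2 between the controls and resistant replicate 1 below both. The differences between lists were not tested.

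**Figure D5:**
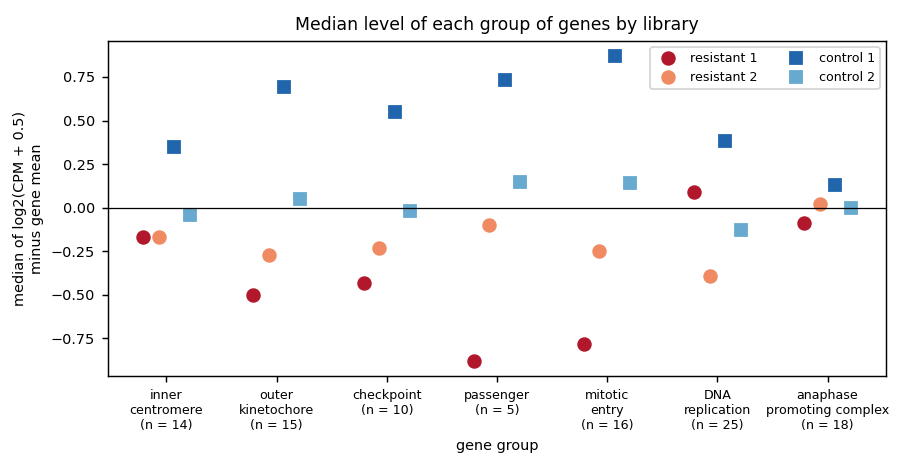
Median over the genes of each group of log2(CPM + 0.5) minus the gene mean, for each library; circles are resistant and squares control libraries. In the 4 roles of the set and in mitotic entry control 1 is highest and both circles lie below both squares, in DNA replication resistant 1 lies between the control libraries, and in the anaphase-promoting complex the 4 libraries lie within -0.09 to 0.13.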

How the data were processed

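RNA from 2 resistant and 2 control A375 libraries was selected on polyA tails and sequenced with strand marks from both ends, per the labels' protocols. The authors deposited raw counts per gene, made with featureCounts 2.0.0 on GENCODE release 42, per the file headers, and STAR, featureCounts, DESeq2 and GRCh38 stand in the submitters' processing notes. The header shows no strand or pair option, so by the program's defaults strand was ignored, mates were counted one by one, reads assigned to several genes or places were dropped and marked duplicates were kept. The exon length per gene, deposited in the same files, gave CPM per kb. The deposited resistant files carry sample numbers other than those of the labels, and each was used under the record that holds it. A further deposited table of log2 values names no comparison and entered no test.

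Identifiers were matched to symbols for 62625 of 62649 genes. Counts were fitted across all genes with edgeR 4.0.16 in R 4.3.3 (filterByExpr, TMM factors of 0.971 to 1.05, quasi-likelihood F test, Benjamini-Hochberg adjustment over 24961 genes), with 2 residual degrees of freedom. The square root of edgeR's common dispersion was 25.5%, a spread between replicates that may be technical. CPM values use TMM library sizes, and 95% intervals come from the same fit. A count of 3 is 0.0441 and 0.0352 CPM in resistant replicates 1 and 2, and 0.0415 and 0.0344 CPM in control replicates 1 and 2, counting error alone. Replicates differed beyond counting noise (chi-square per degree of freedom 63.1 for resistant and 118 for control libraries), so each was used as a sample. Alternatives were DESeq2 1.42.0, other scalings, no filter, control replicate 1 halved, a replicate block and each library left out.

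The genes and lists were chosen with earlier results of these data known, and ratios, exon sharing and chromosome stretches were added after the values were seen. Values in every library are given for genes past the adjusted threshold, for the 3 lowest and the 1 highest fold change in each role, and for listed core genes. In other lists the 2 lowest and the 1 highest are named. Other genes given with values per library (CENPH, ZWINT, CENPF, NSL1, DSN1, MAD1L1 and SGO2) were added after their values were seen.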

Additional observations from a re-analysis of the deposited data

How the results depend on the processing

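The median log2 fold changes of the 44 genes and of the 4 roles stayed negative under each alternative run. The number of genes lower at an adjusted p under 0.05, 0 in edgeR as reported, was 1 with library totals alone as scaling, 1 with control replicate 1 halved, 17 with no filter on low counts and 9 in DESeq2, and lay between 0 and 22 with each library left out in turn. The cause of these differences was not tested. The number lower at an unadjusted p under 0.05, 23 as reported, lay between 11 and 30 with each library left out. Of 210 combinations of a named gene and an alternative, 4 changed sign, in CENPT and ZW10 with a library left out. There the log2 fold changes ran from -0.23 to 0.12 for CENPT and from -0.22 to 0.17 for ZW10. A CHR word was in 7 genes in the last 100 bases before the start and in 17 for TTTGAA alone in the longer window, against 19 as reported. The labels give both groups the same replicate numbers, but same-numbered libraries did not deviate together (correlation 0.00219 over 10089 genes). That value rests on a single replicate difference in each group, so it cannot show whether a number marks a shared batch. With the replicate block 0 genes passed the adjusted threshold, 23 were lower at an unadjusted p under 0.05 and the median log2 fold change of the 44 genes was -0.54. The adjusted p of SGO1, the 1 gene of the other kinetochore list that passed, was 0.101 with the block. A count of 3 is at most 0.0441 CPM, below the level of each of the 44 genes, and replicates spread beyond counting noise.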

Other observations

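The authors' deposited table of log2 values names no comparison. It lists 12 of the 44 genes, all with a negative value in the authors' deposited table, where 55.3% of all 1533 entries are negative. They are CENPA, CENPL, NDC80, NUF2, SPC24, ZWINT, CENPE, CENPF, BUB1, BUB1B, AURKB and BIRC5, with values from -1.42 for CENPA to -0.61 for CENPL in the authors' deposited table. CDC20, whose fitted fold change was the lowest of the set, is not among them. Over the 1395 entries with a fit, the authors' deposited table correlated with the fold changes fitted here (Pearson r = 0.96). Its signs are therefore not independent of the results above.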
